A study of Homo sapiens with 12 samples.

Results

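The microRNAs described here belong to the miR-17 family. They are the mature products of the hairpins miR-17, miR-20a, miR-20b, miR-93, miR-106a and miR-106b, and every PCR assay for either arm of these 6 hairpins was taken by name, which gave 10 of the 372 miRNA assays. A working list of the family held 7 of these assays, and the name rule added miR-20a-3p, miR-20b-3p and miR-93-3p. Of the 10 assays, 5 measure 5p arms (hsa-miR-17-5p, hsa-miR-20a-5p, hsa-miR-20b-5p, hsa-miR-93-5p and hsa-miR-106b-5p) and 5 measure 3p arms (hsa-miR-20a-3p, hsa-miR-20b-3p, hsa-miR-93-3p, hsa-miR-106a-3p and hsa-miR-106b-3p), so that both arms were measured for 4 hairpins.

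A microRNA hairpin is cut into a short duplex, of which one strand, the guide, is loaded into an Argonaute protein such as AGO2, while the other strand is mostly degraded. In this family the 5p strand is the usual guide. The hairpins lie in 3 paralogous gene clusters, of which miR-17-92 is known as an oncogenic cluster in B-cell malignancies and is transcribed under MYC and E2F factors. Known targets of the 5p arms include mRNAs for cell cycle inhibitors and for pro-apoptotic proteins, such as CDKN1A and BCL2L11.

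The study used OCI-My5 multiple myeloma cells as a pair of lines made with lentivirus and sorted for GFP. My5/LV cells carry the empty vector, have a low level of the E3 ligase substrate receptor CRBN (cereblon) and are resistant to lenalidomide, whereas My5/CRBN cells express histidine-tagged CRBN at a high level and are sensitive to it. Each line was measured under 6 conditions with 1 miScript PCR array per condition, 12 arrays in all. The conditions were no treatment, knockdown of EIF2C2 (the gene for AGO2) with the shRNA sh72, overexpression of EIF2C2 from an epitope-tagged cDNA, 10 μM lenalidomide for 72 hours, 10 μM lenalidomide for 120 hours, and EIF2C2 cDNA with 10 μM lenalidomide for 72 hours. The sh72 and the cDNA were delivered by a further lentiviral infection with puromycin selection. The 12 arrays include none of cells with the empty vectors of this further infection. Infection and selection therefore cannot be told apart from the change in AGO2. Each array is of a whole culture, in which less of a miRNA per cell and fewer cells that make it cannot be told apart. EIF2C2 and CRBN mRNA have no assay on the array, and neither the knockdown nor the overexpression could be checked in these data.

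The mature sequences show what the 5p arms share. They are given 5′ to 3′ as in RefSeq for GRCh38.p14, with bases 2 to 8, the seed that pairs with target mRNAs, in capitals. All 5 measured 5p arms have the same seed, and miR-106a-5p, which has no assay here, and miR-519d-3p, which has one, are shown because they share it.
miR-17-5p: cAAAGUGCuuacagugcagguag
miR-20a-5p: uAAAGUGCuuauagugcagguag
miR-20b-5p: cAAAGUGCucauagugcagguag
miR-93-5p: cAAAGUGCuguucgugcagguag
miR-106b-5p: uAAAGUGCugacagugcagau
miR-106a-5p: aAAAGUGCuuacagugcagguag
miR-519d-3p: cAAAGUGCcucccuuuagagug
Of the mature miRNAs in the RefSeq table, 8 have this seed and 6 of them have an assay. miR-17-5p differs from miR-106a-5p at 1 of 23 positions and from miR-20a-5p and miR-20b-5p at 2 positions each. Whether the miR-17-5p well also amplified miR-106a-5p was not tested.

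The 3p arms are printed to show that they have no seed in common, either with the 5p arms or with each other.
miR-20a-3p: aCUGCAUUaugagcacuuaaag
miR-20b-3p: aCUGUAGUaugggcacuuccag
miR-93-3p: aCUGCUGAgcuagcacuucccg
miR-106b-3p: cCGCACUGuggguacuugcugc
Mature sequences of 9 of the 10 members were found by name, and miR-106a-3p is named only. Within the hairpins the arms lie a short loop apart, as the MIR106B and MIR20A hairpins show, with the 5p arm and then the 3p arm in capitals.
MIR106B: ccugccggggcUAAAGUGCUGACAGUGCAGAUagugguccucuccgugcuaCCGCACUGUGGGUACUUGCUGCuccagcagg
MIR20A: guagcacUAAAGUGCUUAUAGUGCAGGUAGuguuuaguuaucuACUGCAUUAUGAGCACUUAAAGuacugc
With sh72 the arms of MIR106B changed unequally and those of MIR20A changed alike, as the values below show. Other comparisons did not all share this contrast. After 72 hours of lenalidomide in My5/CRBN cells the difference of 5p minus 3p log2 fold change was -0.64 for miR-106b and -0.66 for miR-20a.

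The hairpin MIR20A lies at chr13:91351065-91351135 on the plus strand and MIR106B at chr7:100093993-100094074 on the minus strand. The 6 hairpins of the miR-17-92 cluster, which include MIR17 and MIR20A, span 787 bases of chromosome 13 inside the noncoding host gene MIR17HG. The 6 hairpins of the miR-106a-363 cluster, with MIR106A and MIR20B, span 901 bases of chromosome X inside MIR106AHG. MIR106B, MIR93 and MIR25 span 515 bases of chromosome 7 inside MCM7, which encodes a subunit of the replicative helicase.

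The deposited values are threshold cycles (Ct), the PCR cycle at which a well's fluorescence passes a set threshold, so that one cycle less stands for about a doubling of the miRNA. Ct values above 35 and undetermined wells were set to 35, the cap, and the mean Ct of 6 small-RNA control wells (SNORD61, SNORD68, SNORD72, SNORD95, SNORD96A and RNU6-2) on the same array was subtracted to give the normalized Ct. A log2 fold change was taken as the control array's normalized Ct less the test array's, so that it is positive for a higher level in the test cells. Each condition of a line has 1 array and no replicate. No test was run, and differences were set beside the SD that the 6 control wells showed in the same comparison, called the control-well SD. Assays present in 2 wells of each array differed over the 12 arrays by a root mean square of 0.187 cycles for the reverse transcription control, 0.383 cycles for the positive PCR control and 1.43 cycles for cel-miR-39, whose Ct lay between 31.5 and the cap. Between 324 and 367 miRNAs per array had a Ct under 35. The blood-lineage markers miR-142-3p and miR-150-5p had a median Ct of 16.6 and 20.2. Assays for miRNAs of other tissues also had a median Ct under the cap. Among them were miR-122-5p of liver (33.9), miR-1 of muscle (21.1) and miR-200c-3p of epithelium (25.5). miR-155-5p of activated B cells had a median Ct of 32.6. The highest Ct of miR-122-5p and of miR-155-5p was the cap.

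The 5p arms were among the assays with the lowest Ct on these arrays, whereas the 3p arms were spread over the scale. hsa-miR-20a-5p had a Ct from 16.2 to 19.7 over the 12 arrays, hsa-miR-106b-5p from 16.9 to 20.9, hsa-miR-17-5p from 17.6 to 21.6, hsa-miR-20b-5p from 18.1 to 22.2 and hsa-miR-93-5p from 18.7 to 22.9. By mean Ct these assays ranked 6, 8, 14, 17 and 33 of 372, lowest Ct first. hsa-miR-20a-3p had a Ct from 22.3 to 25.9, hsa-miR-93-3p from 24.1 to 26.7, hsa-miR-106b-3p from 25.5 to 29.1 and hsa-miR-20b-3p from 26.8 to 31.3. Ct values of different assays depend also on their primers, so that the order of the assays is not an order of copy number. hsa-miR-106a-3p was under the cap on 6 of the 12 arrays, with a lowest Ct of 31.9, in the range where the paired cel-miR-39 wells differed by over a cycle. The seed-sharing miR-519d-3p had a Ct of 31.5 or higher on all arrays, and it is not followed further.

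**Figure D1:**
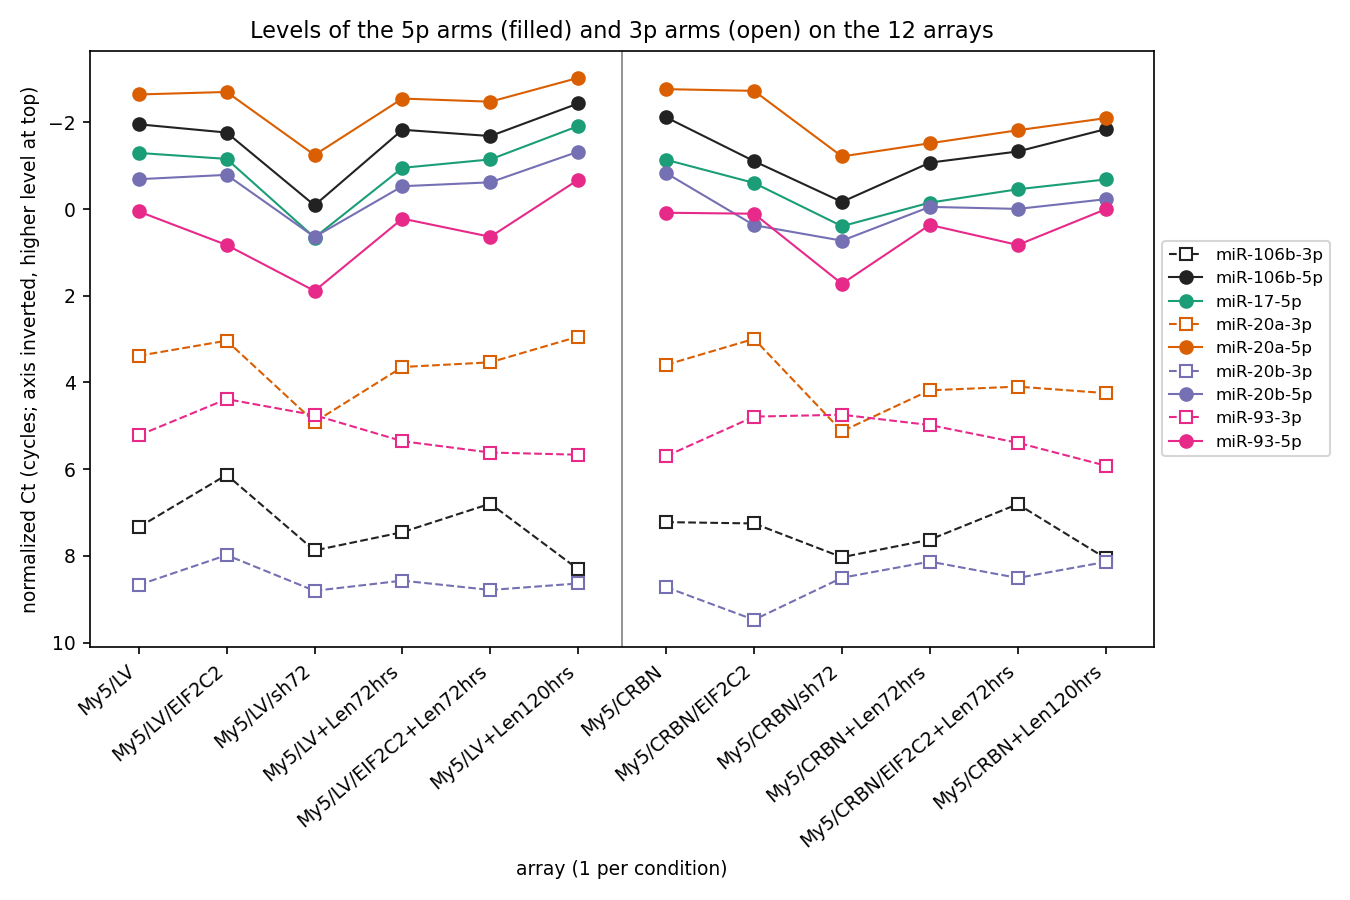
Normalized Ct in cycles (axis inverted, so that a higher level is at the top) of the 5p arms (filled circles) and of the 3p arms of 4 hairpins (open squares) on the 12 arrays, with My5/LV on the left and My5/CRBN on the right. Lines join the arrays of a line only to guide the eye. With this normalizer the 5p arms had their lowest levels with sh72 in both lines, and miR-93-3p did not follow them there. Relative to the mean of the 314 miRNAs under the cap on all arrays, the 5p median of My5/CRBN cells was lower after 72 hours of lenalidomide than with sh72.

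The 5p arms moved together across the arrays. miR-17-5p had a normalized Ct of -1.29 in untreated My5/LV cells, -1.16 with EIF2C2 cDNA, 0.66 with sh72, -0.95 after 72 hours and -1.91 after 120 hours of lenalidomide, and -1.14 with EIF2C2 cDNA and lenalidomide. In My5/CRBN cells its values in the same order were -1.14, -0.60, 0.40, -0.15, -0.68 and -0.46. The lowest levels of miR-17-5p were thus those on both sh72 arrays, and the highest that of My5/LV cells after 120 hours of lenalidomide. For the mean of the 5p arms the order was the same at its ends. My5/LV cells after 120 hours of lenalidomide had the highest level (normalized Ct -1.87) and were followed by untreated My5/CRBN (-1.35) and My5/LV cells (-1.30). The 7 arrays from My5/LV cells after 72 hours of lenalidomide (-1.13) to My5/CRBN cells after 72 hours of lenalidomide (-0.48) came next, no neighbours of them more than 0.24 cycles apart. The sh72 arrays of My5/CRBN (0.29) and My5/LV cells (0.37) came last, 0.78 cycles below the array before them. Steps of 0.24 cycles or less are within the root mean square of 0.383 cycles between duplicate wells of the positive PCR control. Those at both ends of the order, 0.52 and 0.78 cycles, exceed it but not the largest difference of such a pair, 0.839 cycles. The steps are between means over the 5p arms, whereas the duplicates are single wells. Duplicate wells lie on the same array, so that they do not measure the spread between arrays or cultures. The place of the sh72 array of My5/CRBN cells depended on the normalizer. This was seen with the mean of the 314 miRNAs under the cap on all arrays as normalizer. The median log2 fold change of the 5p arms against untreated My5/CRBN cells was then -1.01 with sh72 and -1.34 after 72 hours of lenalidomide.

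Likeness between assays was measured by the SD over the 12 arrays of the difference between their Ct values on the same array, in which any normalizer cancels. For the 10 pairs of 5p arms this SD ran from 0.214 to 0.501 cycles with a median of 0.370. For the 20 pairs of a 5p and a 3p arm the median was 0.822, and for the 6 pairs of 3p arms 0.719. Against the mean of the 5p arms, the SD was 0.368 for miR-20a-3p, 0.757 for miR-20b-3p, 0.828 for miR-106b-3p and 0.997 for miR-93-3p. The median was 0.798 over the 314 assays under the cap on all arrays and 0.383 over the 23 other assays whose mean Ct lay in the range of the 5p arms, which share with them a low Ct and the same arrays. Those 23 assays include miR-18a-5p, miR-19b-3p and miR-92a-3p, which come from hairpins of the same clusters. Outside the family and its clusters, the 5 assays with the smallest SD against that mean were let-7g-5p (0.144), miR-146b-5p (0.193), miR-30a-5p (0.194), miR-27b-3p (0.221) and miR-23b-3p (0.223). The values of the 5p arms themselves against that mean, from 0.143 for miR-17-5p to 0.321 for miR-93-5p, are lowered by their own part in it.

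Without treatment the 5p arms differed little between the lines. In My5/CRBN against My5/LV cells the log2 fold changes of the 5p arms ran from -0.16 for miR-17-5p to 0.16 for miR-106b-5p, all smaller than the control-well SD of 0.22. Of the 3p arms, miR-106b-3p had a log2 fold change of 0.12, miR-20b-3p of -0.05, miR-20a-3p of -0.21 and miR-93-3p of -0.48. Of all 372 assays, 6.45% reached 2 fold in the downward and 4.84% in the upward direction, and none of these 9 members was among them.

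Knockdown of AGO2 addressed whether the steady-state levels of miRNAs follow the level of AGO2. With sh72 all 5p arms of the family were, relative to the control wells, at least 2 fold lower in both lines, while the 3p arms split. In My5/LV cells the Ct of miR-17-5p went from 18.9 to 21.6 (log2 fold change -1.95), that of miR-106b-5p from 18.2 to 20.9 (-1.87) and that of miR-93-5p from 20.2 to 22.9 (-1.83). These were at least 3 fold lower, whereas miR-20a-5p (-1.40, Ct 17.5 to 19.7) and miR-20b-5p (-1.33, Ct 19.5 to 21.6) were 2.63 and 2.52 fold lower. The median of the 5p arms was -1.83, or 3.56 fold lower, against a control-well SD of 0.51. Over all assays, 23.7% were lower by 3 fold or more and 43.3% by 2 fold or more, and the median log2 fold change was -0.79. The family's 5p arms were close to other assays of like Ct, since the 23 other assays in their Ct range had a median of -1.64 and 22 of them were at least 2 fold lower. This set is not free of the family's clusters, as it includes miR-18a-5p, miR-19b-3p and miR-92a-3p, and its median is the value of miR-19b-3p.

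In the My5/CRBN line sh72 gave log2 fold changes of -1.95 for miR-106b-5p (Ct 18.7 to 20.3), -1.64 for miR-93-5p (20.9 to 22.2), -1.56 for miR-20b-5p (19.96 to 21.2), -1.55 for miR-20a-5p (18.03 to 19.2) and -1.53 for miR-17-5p (19.7 to 20.8). Of these, miR-106b-5p and miR-93-5p passed 3 fold, as did 12.9% of all assays in this direction, and all of the 5p arms passed 2 fold, as did 33.6%. The median of the 5p arms was -1.56, against a control-well SD of 0.30, a median of -0.52 over all assays and one of -1.06 over the 23 assays of like Ct, of which 13 were at least 2 fold lower. The 2 sh72 comparisons share no array. Relative to the mean of the 314 miRNAs in place of the control wells the 5p arms were still lower in both lines but by less. Their medians were -0.97 for My5/LV and -1.01 for My5/CRBN, and no 5p arm was past 3 fold. By this normalizer miR-20a-5p (-0.53), miR-20b-5p (-0.47) and miR-93-5p (-0.97) in My5/LV cells and miR-17-5p (-0.99) in My5/CRBN cells did not reach 2 fold.

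Of the 3p arms, miR-20a-3p was lower by as much as its 5p partner, with log2 fold changes of -1.53 in both lines (Ct 23.5 to 25.9 in My5/LV and 24.4 to 25.6 in My5/CRBN cells). miR-106b-3p had log2 fold changes of -0.54 in My5/LV cells and -0.81 in the My5/CRBN line, miR-20b-3p of -0.14 and 0.22, and miR-93-3p of 0.47 and 0.96. Only the values of miR-106b-3p and miR-93-3p in My5/CRBN cells, the 2 of miR-20a-3p and that of miR-106b-3p in My5/LV cells exceeded the SD of the control wells. Over the 119 other assays in the Ct range of these 3p arms the median was -0.89 with My5/LV and -0.66 with My5/CRBN. miR-93-3p lay above that median by more than a cycle in both lines. The signs of these smaller values depended on the normalizer. In My5/LV cells miR-106b-3p was at 0.33 with the mean of the 314 miRNAs and miR-93-3p at -0.51 with RNU6 alone. In My5/CRBN cells miR-20b-3p was at -0.23 with RNU6 alone.

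**Figure D2:**
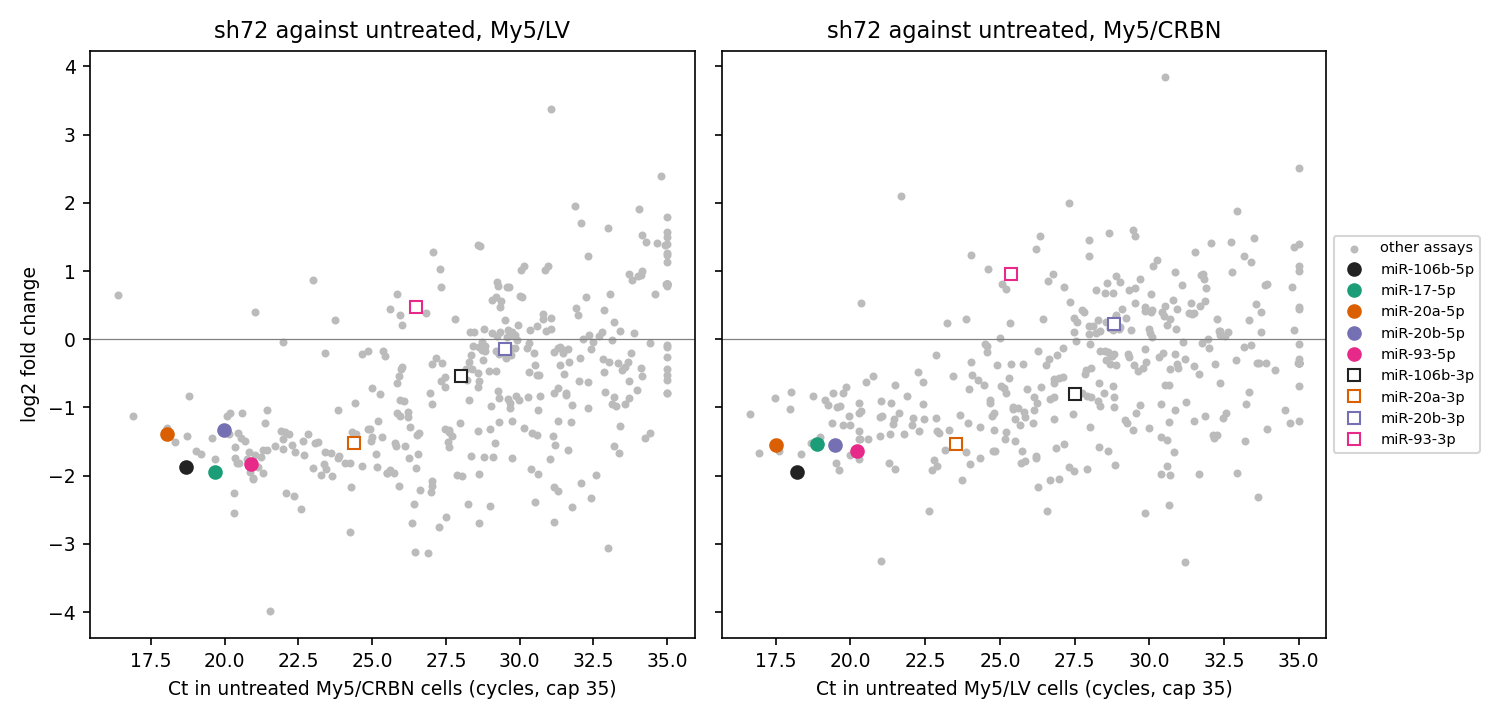
Log2 fold change with sh72 against untreated cells of the same line, plotted against the Ct (cycles) of each assay in the untreated cells of the other line, which are not part of the comparison, for all 372 assays. Grey points are the assays outside the family and miR-106a-3p. The 5p arms (filled circles) and miR-20a-3p lie between -2 and -1 with most assays of low Ct, and miR-93-3p lies above 0 in both lines with this normalizer, though at -0.51 in My5/LV cells with RNU6 alone.

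The arms of one hairpin can be compared on the same array without a normalizer, by the difference of their log2 fold changes. With sh72 this difference, 5p minus 3p, was -2.30 for miR-93, -1.33 for miR-106b and -1.20 for miR-20b in My5/LV cells, and -2.59, -1.14 and -1.77 in My5/CRBN cells. For miR-20a it was 0.13 and -0.02. Thus in both lines the 5p arm fell relative to the 3p arm for miR-93, miR-106b and miR-20b, and the arms of miR-20a changed alike. The median over the 4 hairpins was -1.26 for My5/LV and -1.46 for My5/CRBN. The same direction was common outside the family. Among other hairpins with both arms under the cap, the arm with the lower mean Ct fell relative to its partner in 54 of 70 (77.1%) with My5/LV and in 53 of 70 (75.7%) with My5/CRBN, with medians of -0.81 and -0.50.

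**Figure D3:**
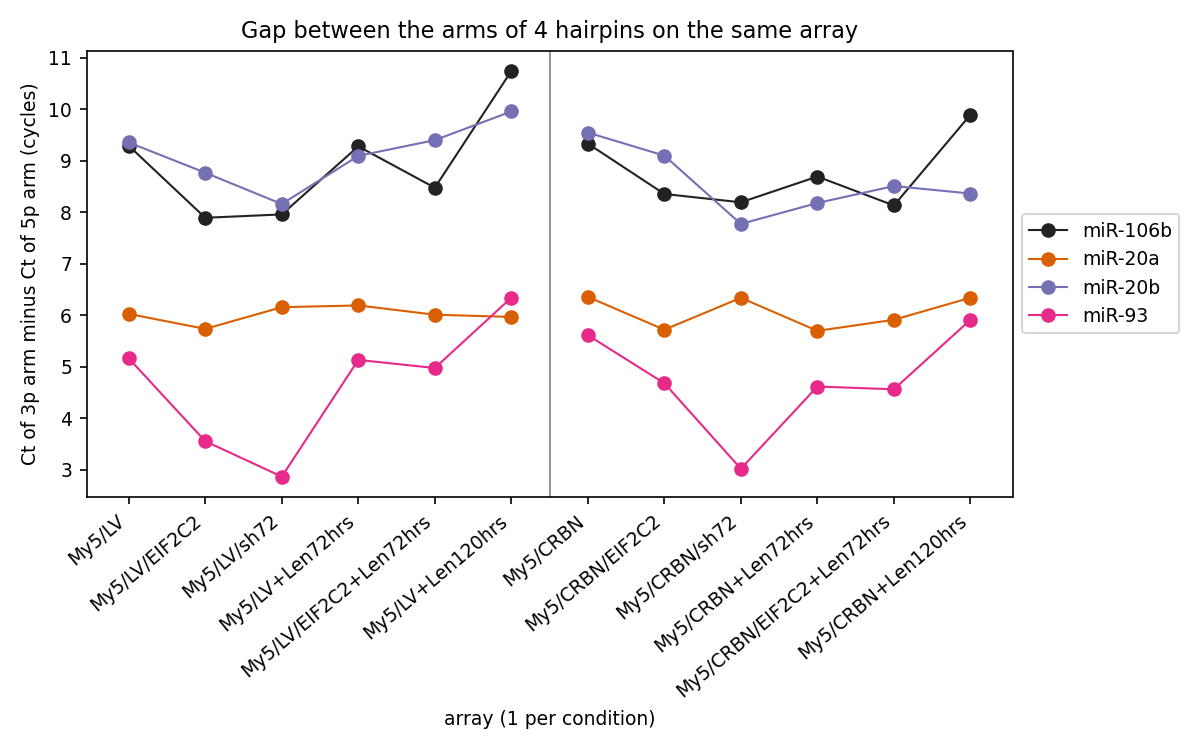
Ct of the 3p arm minus Ct of the 5p arm, in cycles, for 4 hairpins on each of the 12 arrays, with My5/LV on the left and My5/CRBN on the right. The gap of miR-20a stayed between 5.70 and 6.36 cycles, and that of miR-93 was smallest with sh72 (2.87 cycles in My5/LV, 3.02 in My5/CRBN) and largest after 120 hours of lenalidomide (6.34 and 5.91).

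Across all 12 arrays the gap between the arms had an SD of 0.244 cycles for miR-20a, 0.663 for miR-20b, 0.872 for miR-106b and 1.09 for miR-93. Among 59 other hairpins with both arms under the cap on all arrays, 1 had a smaller SD than miR-20a and 11 a larger one than miR-93, with a median of 0.726. The gap of miR-93 was 5.16 cycles without treatment in My5/LV cells and was 5.61 in the My5/CRBN line, and 3.55 and 4.68 with EIF2C2 cDNA. That of miR-106b was 9.29 and 9.34 cycles without treatment, and ran from 7.89 in My5/LV cells with EIF2C2 cDNA to 10.7 in My5/LV cells after 120 hours of lenalidomide.

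With EIF2C2 cDNA no 5p arm was higher than in untreated cells by more than the control-well SD. In My5/LV cells the log2 fold changes were 0.10 for miR-20b-5p, 0.06 for miR-20a-5p, -0.14 for miR-17-5p, -0.19 for miR-106b-5p and -0.77 for miR-93-5p, against a control-well SD of 0.41. The median of -0.14 compares with 0.17 over all assays and -0.21 over the 23 assays of like Ct. The 3p arms were at 0.35 for miR-20a-3p, 0.69 for miR-20b-3p, 0.84 for miR-93-3p and 1.21 for miR-106b-3p. Of these, miR-106b-3p was at least 2 fold higher, as were 15.9% of all assays. With RNU6 alone miR-106b-3p was at 0.57 and miR-20a-3p at -0.29.

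In My5/CRBN cells with EIF2C2 cDNA the 5p arms had log2 fold changes of -1.20 (miR-20b-5p), -1.01 (miR-106b-5p), -0.53 (miR-17-5p), -0.04 (miR-20a-5p) and -0.02 (miR-93-5p), with a control-well SD of 0.56. miR-20b-5p and miR-106b-5p were thus at least 2 fold lower, where 14.5% of all assays were. Their Ct went from 19.96 to 22.2 and from 18.7 to 20.8. Relative to the mean of the 314 miRNAs they were at -0.96 and -0.77, and neither was then at least 2 fold lower. With the 5 SNORD wells alone miR-106b-5p was also at -0.96. Of the 12 arrays, that of My5/CRBN cells with EIF2C2 cDNA had the fewest miRNAs under Ct 35 (324), the highest median Ct (30.3) and the highest mean Ct of the control wells (21.9), and the part of these in the result was not tested. The 3p arms were at -0.75 (miR-20b-3p), -0.03 (miR-106b-3p), 0.60 (miR-20a-3p) and 0.91 (miR-93-3p). The difference of 5p minus 3p was below 0 for all 4 hairpins in both lines, from -1.61 for miR-93 to -0.29 for miR-20a in My5/LV cells and from -0.98 for miR-106b to -0.45 for miR-20b in My5/CRBN cells. Among other hairpins, the arm of lower Ct fell relative to its partner in 73.2% of 71 hairpins for My5/LV and 68.8% of 64 for My5/CRBN.

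Set against the sh72 arrays in place of the untreated ones, cells with EIF2C2 cDNA had higher levels of the 5p arms in both lines. In My5/LV cells the log2 fold changes ran from 1.06 for miR-93-5p to 1.81 for miR-17-5p with a median of 1.45, against a control-well SD of 0.23. All 5 were at least 2 fold higher, as were 45.7% of all assays, and the 23 assays of like Ct had a median of 1.25. In My5/CRBN cells they ran from 0.36 for miR-20b-5p to 1.62 for miR-93-5p with a median of 1.00, against a control-well SD of 0.39 and a median of 0.93 over the assays of like Ct. All but miR-20b-5p exceeded that SD, and 2 were at least 2 fold higher, where 35.2% of all assays were. The sh72 arrays are those of the comparisons with untreated cells, so that the values share their error. Relative to the mean of the 314 miRNAs the median in My5/LV cells was 0.41.

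**Figure D4:**
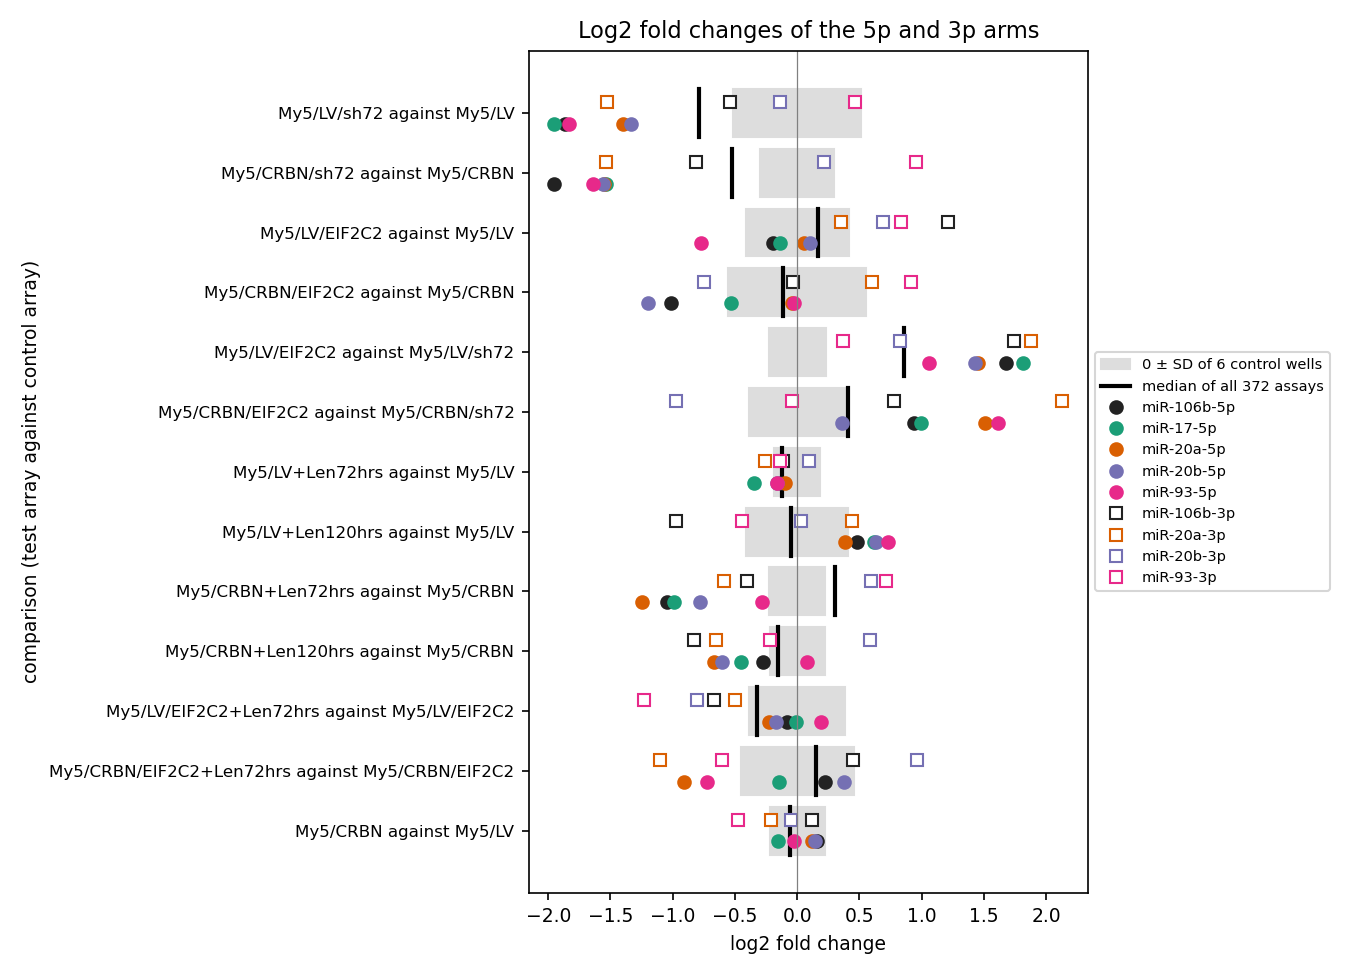
Log2 fold changes of the 5p arms (filled circles) and of the 3p arms of 4 hairpins (open squares) in 13 comparisons of a pair of arrays; the grey bar is the SD of the 6 control wells around 0 and the black line the median of all 372 assays. The 5p arms lie below -1.3 with sh72 in both lines, below the median of all assays after 72 hours of lenalidomide in My5/CRBN cells, and above 0 after 120 hours in My5/LV cells.

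Lenalidomide binds CRBN, and the arrays at 72 and 120 hours addressed how miRNA levels respond to it in resistant and in sensitive cells. No array is labelled as a solvent control or as matched in time. Both times are set against the same untreated array of the line, which is also the control for sh72 and EIF2C2 cDNA. Their values thus share its error, and the drug cannot be told apart from solvent or time in culture. In My5/LV cells 72 hours of lenalidomide gave small values, with log2 fold changes of the 5p arms from -0.34 for miR-17-5p to -0.09 for miR-20a-5p (median -0.16, control-well SD 0.18) and of the 3p arms of 4 hairpins from -0.26 for miR-20a-3p to 0.10 for miR-20b-3p. Over all assays the median was -0.12, and 5.65% of them but no 5p arm were at least 2 fold lower. Of the 9 members, miR-17-5p and miR-20a-3p exceeded the control-well SD.

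After 120 hours in My5/LV cells the 5p arms were all higher. The log2 fold changes were 0.73 for miR-93-5p (Ct 20.2 to 18.9), 0.64 for miR-20b-5p (19.5 to 18.3), 0.62 for miR-17-5p (18.9 to 17.7), 0.48 for miR-106b-5p (18.2 to 17.2) and 0.38 for miR-20a-5p (17.5 to 16.6). All but that of miR-20a-5p exceeded the control-well SD of 0.41, and none reached 2 fold, which 12.9% of all assays did in this direction. The median of the 5p arms was 0.62, against -0.05 for all assays and 0.56 for the 23 assays of like Ct. The 3p arms were at 0.44 for miR-20a-3p, 0.03 for miR-20b-3p, -0.45 for miR-93-3p and -0.97 for miR-106b-3p. The 5p arm rose relative to the 3p arm by 1.45 for miR-106b, 1.18 for miR-93 and 0.60 for miR-20b, and for miR-20a the difference was -0.06. Among 72 other hairpins, the arm of lower Ct fell relative to its partner in 31.9%.

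In My5/CRBN cells 72 hours of lenalidomide went with lower levels of the 5p arms while the median of all assays was higher. The log2 fold changes were -1.25 for miR-20a-5p, -1.04 for miR-106b-5p, -0.99 for miR-17-5p, -0.78 for miR-20b-5p and -0.28 for miR-93-5p, all past the control-well SD of 0.22. Their median of -0.99, 1.98 fold lower, compares with 0.30 over all assays and -0.31 over the 23 assays of like Ct. Of the 5p arms, miR-20a-5p and miR-106b-5p were at least 2 fold lower, as were 5.38% of all assays and 1 of the 23 assays of like Ct. The raw Ct of the 5p arms was lower after treatment, for example 18.03 before and 17.6 after for miR-20a-5p, while on the same arrays the mean Ct of the control wells went from 20.8 to 19.1 and the median Ct of all miRNAs from 28.9 to 26.6. The 3p arms were at -0.59 for miR-20a-3p, -0.40 for miR-106b-3p, 0.59 for miR-20b-3p and 0.72 for miR-93-3p, and the difference of 5p minus 3p was below 0 for all 4 hairpins, from -1.37 for miR-20b to -0.64 for miR-106b. The arm of lower Ct fell relative to its partner in 61.1% of 72 other hairpins.

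After 120 hours in My5/CRBN cells the values of the 5p arms were closer to 0 than after 72 hours. miR-20a-5p had a log2 fold change of -0.67, miR-20b-5p of -0.60, miR-17-5p of -0.45, miR-106b-5p of -0.27 and miR-93-5p of 0.08, with a median of -0.45 and a control-well SD of 0.22. All assays had a median of -0.15 and the 23 assays of like Ct one of 0.19. No 5p arm was at least 2 fold lower, where 21.0% of all assays were. miR-106b-3p was at -0.83, miR-20a-3p at -0.65, miR-93-3p at -0.22 and miR-20b-3p at 0.58.

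With EIF2C2 cDNA present, the log2 fold changes of the 5p arms after 72 hours of lenalidomide were small in My5/LV cells. They ran from -0.22 for miR-20a-5p to 0.19 for miR-93-5p (median -0.08, control-well SD 0.39). The 3p arms were lower, at -0.50 for miR-20a-3p, -0.66 for miR-106b-3p, -0.80 for miR-20b-3p and -1.23 for miR-93-3p. The last was at least 2 fold lower, as were 25% of all assays. In My5/CRBN cells with EIF2C2 cDNA the 5p arms ran from -0.91 for miR-20a-5p to 0.38 for miR-20b-5p (median -0.15, control-well SD 0.45), and the 3p arms from -1.10 for miR-20a-3p to 0.97 for miR-20b-3p. Here miR-20a-3p alone was at least 2 fold lower, where 11.6% of all assays were. The median of the 5p arms in My5/CRBN cells was thus -0.99 without and -0.15 with EIF2C2 cDNA, each against its own control array. The control arrays differed more than the treated ones. The mean normalized Ct of the 5p arms was -1.35 in untreated My5/CRBN cells and -0.79 with EIF2C2 cDNA alone. After 72 hours of lenalidomide this mean was -0.48 without and -0.55 with EIF2C2 cDNA. The medians rest on 4 arrays, and their difference was not tested.

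miR-106a-3p gave a level on both arrays in few comparisons. Its deposited Ct was 37.1 in untreated My5/LV cells, which is past the cap, and 34.7 in untreated My5/CRBN cells. It was 31.9 after 72 hours and 33.5 after 120 hours of lenalidomide in My5/CRBN cells, which gave log2 fold changes of 0.99 and -0.89 with opposite signs, and the first became -1.67 with a cap of 32. In My5/LV cells with EIF2C2 cDNA it was 34.0 without and 33.4 with lenalidomide (-1.83). Values of this size are near the 1.43 cycles by which cel-miR-39 wells of like Ct differed.

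The other hairpins of the 3 clusters had 13 assays, and those of low Ct went with the 5p arms under sh72. The 4 whose mean Ct lay below that of miR-93-5p, namely miR-18a-5p, miR-19a-3p, miR-19b-3p and miR-92a-3p, were lower with sh72 in both lines, with medians of -1.58 for My5/LV and -1.66 for My5/CRBN. The 23 assays of like Ct, which include some of these, had medians of -1.64 and -1.06. Over all 13 assays the medians were -1.13 and -0.18, with 8 assays lower and 5 higher in each line. miR-18a-5p had log2 fold changes of -2.25 and -1.82, and miR-25-3p, of the hairpin next to miR-93, of -1.72 and -1.08. Of the 13 assays, 4 were lower by 3 fold or more in each line, where 23.7% and 12.9% of all assays were. The partner arms differed, since miR-18a-3p had values of -1.96 and -1.64 while miR-25-5p had 1.08 and 0.34 and miR-92a-1-5p 0.13 and 0.18. After 72 hours of lenalidomide in My5/CRBN cells, miR-18a-5p (-0.71), miR-19b-3p (-0.68) and miR-92a-3p (-0.47) were lower and miR-19a-3p (0.70) was higher, against a control-well SD of 0.22. There miR-25-3p was at 0.02. After 120 hours in My5/LV cells miR-18a-5p was at 0.99, miR-25-3p at 0.68 and miR-92a-3p at 0.62, and miR-19a-3p and miR-19b-3p were at 0.03 and -0.03.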

How the data were processed

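Total RNA of 12 cultures was reverse transcribed and run on miScript miRNA PCR Arrays. The deposited table holds raw Ct values, treated here as a score on a log2-like scale that the authors had not normalized. How the threshold was set was not given in the sources used here. A second deposited table, of fold changes from the maker's online software, was not used. Ct values were capped at 35 and the mean of 6 control wells was subtracted. Assays were counted as changed at 3 fold and at 2 fold. Each condition of a line has 1 array, no p-value was computed, and the precision is set by the few arrays. Members, lists, comparisons and alternatives were chosen with earlier results of these data known. The comparisons of EIF2C2 cDNA with sh72 and the reverse transcription control wells as normalizer were added after the values were seen. The miRNAs named are the members, the assay sharing their seed, the assays of the other hairpins of the 3 clusters, marker miRNAs and the 5 nearest assays by SD of the Ct difference. In the RefSeq table, 330 of 372 assay names matched a mature sequence. Alternatives were the global mean of 314 miRNAs, RNU6 alone or 5 SNORD wells as normalizer, a Ct cap of 32, and hairpins under Ct 30 alone. Python 3.11.15, NumPy 2.4.6, pandas 2.3.3 and Matplotlib 3.10.9 were used, and the code was tested on simulated data.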

Additional observations from a re-analysis of the deposited data

Results flagged for a closer look

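Results of which the sign differed between the cell lines under the same treatment, with both values past the SD of the control wells, are given here. None of these differences was tested, and the share of all assays with such a pair of values was not counted. After 120 hours of lenalidomide the median of the 5p arms was 0.62 for My5/LV and -0.45 for My5/CRBN, and its values are those of miR-17-5p (0.62 and -0.45). miR-20b-5p was at 0.64 and -0.60, miR-106b-5p at 0.48 and -0.27, and miR-20a-3p at 0.44 and -0.65. miR-20b-3p was at 0.69 and -0.75 with EIF2C2 cDNA, and at -0.80 and 0.97 with lenalidomide for 72 hours in cells with EIF2C2 cDNA. Of these pairs, that of miR-20b-5p kept both values past the SD of the control wells under each normalizer tried. With the global mean, the My5/CRBN value after 120 hours was -0.04 for miR-106b-5p and -0.22 for miR-17-5p and the median, and that of miR-20b-3p with EIF2C2 cDNA was -0.51. With RNU6 alone, the My5/LV value after 120 hours was 0.37 for miR-106b-5p and 0.33 for miR-20a-3p, and that of miR-20b-3p with EIF2C2 cDNA was 0.05. With the reverse transcription control wells, miR-20b-3p in My5/LV cells was at 0.37 with EIF2C2 cDNA and at -0.34 with lenalidomide added to it. These values were within that SD. The array of My5/CRBN cells with EIF2C2 cDNA, on which the Ct of miR-20b-3p was 31.3, is part of both values of miR-20b-3p in My5/CRBN cells. The pattern at 120 hours of lenalidomide was also seen in some of the 5 nearest assays outside the family. Those assays were chosen by their likeness to the 5p arms over all arrays, the arrays of this pattern included. Their values therefore cannot show how common the pattern was outside the family. Among them, let-7g-5p (0.80 and -0.26) and miR-146b-5p (0.55 and -0.37) had such a pair. miR-27b-3p was at 0.65 and -0.16, while miR-30a-5p (0.56 and 0.27) and miR-23b-3p (0.75 and 0.16) were higher in both lines.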

How the results depend on the processing

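Each condition of a line has 1 array. A fit that pairs the lines over the 6 conditions, and takes their responses as alike, was not run. With the global mean as normalizer the median of the 5p arms with sh72 was -0.97 for My5/LV and -1.01 for My5/CRBN, 0.41 for EIF2C2 cDNA against sh72 in My5/LV cells, -1.34 after 72 hours and -0.22 after 120 hours of lenalidomide in My5/CRBN cells, and 0.31 for lenalidomide in My5/LV cells with EIF2C2 cDNA. With it the sh72 values are relative to a median of all assays that moved from -0.79 to 0.07 and from -0.52 to 0.02. With RNU6 alone the medians of the 5p arms were -2.81 and -2.01 with sh72, -0.77 with EIF2C2 cDNA in My5/LV cells, 1.80 for EIF2C2 cDNA against sh72 in My5/LV cells, -0.61 for lenalidomide with EIF2C2 cDNA in My5/LV cells and -0.60 in the same comparison of My5/CRBN cells, and -0.13 between untreated lines. With the reverse transcription control wells they were -1.94 with sh72 in My5/CRBN cells, 1.21 for EIF2C2 cDNA against sh72 in My5/LV cells and 0.38 for lenalidomide in My5/LV cells with EIF2C2 cDNA. For EIF2C2 cDNA against sh72 in My5/CRBN cells, the median difference of 5p minus 3p was 0.74 over 4 hairpins and 0.16 over those under Ct 30. The other medians moved by less than the control-well SD, among them all 26 with a cap of 32 and all 13 with the 5 SNORD wells. No member that was at least 2 fold changed, with both arrays under the cap, turned its sign under these normalizers or the cap of 32. With 1 array per condition, the spread between cultures is unknown.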
